A study of Mus musculus with 8 samples.

Results

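The nuclear genes for the respiratory chain and the ATP synthase were examined in an open chromatin (ATAC-seq) comparison of liver nuclei. They were taken as the protein-coding genes of the GENCODE M21 mouse annotation whose symbols begin with Nduf, Uqcr, Cox4 to Cox8 or Atp5, or are Sdha, Sdhb, Sdhc or Sdhd. This rule gave 94 gene records with 93 symbols, of 21938 nuclear protein-coding genes: 46 of complex I, 4 of complex II, 8 of complex III, 18 of complex IV and 18 of complex V. The complex was assigned from the beginning of the symbol alone, so every Nduf gene, with Ndufa4 and Ndufa4l2, is counted in complex I whatever complex its protein belongs to. Control livers (4 libraries) and Alb-D2KO livers (4 libraries) came from adult mice of strain C57BL/6 in the labels and C57BL/6J in the study's methods, and 50000 nuclei of frozen liver went into each transposase reaction. Alb-D2KO mice carry floxed Dio2, the gene for the type 2 deiodinase that makes the active thyroid hormone T3, and a Cre driven by the albumin promoter, so the deletion is limited to cells that express albumin, chiefly hepatocytes. The titles of the control libraries carry the word cre, and no age beyond adult and no sex was given in the labels.

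The respiratory chain passes electrons from NADH (complex I) and succinate (complex II) through ubiquinone to complex III, then through cytochrome c to complex IV, which reduces oxygen. Complexes I, III and IV pump protons across the inner mitochondrial membrane, and the ATP synthase (complex V) uses the gradient to make ATP. Hepatocytes are rich in mitochondria, and thyroid hormone is a known regulator of mitochondrial respiration. The core subunits are made in nearly every cell, whereas a few isoforms are restricted to other tissues, such as Cox7a1 and Cox8b in heart and skeletal muscle.

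A lost region is a stretch called open in the pooled control libraries that overlaps no region called in the pooled Alb-D2KO libraries. There were 8031 lost regions and 250 regions called only in Alb-D2KO liver. Each was given an area, the area under its curve of −log10 p, which grows with both the strength and the width of the signal. Because each genotype was called once on its 4 libraries together, no value below has a replicate error and no difference between genotypes could be tested. A lost region says that a threshold was passed in one pooled call and not in the other. Fewer nuclei open at a site and less opening per nucleus cannot be told apart. The intervals given with shares are 95% Wilson intervals and cover only the counting error over genes.

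Cox7a1, the heart and muscle isoform of a small complex IV subunit, was the only member with a lost region at its own promoter, defined as the sequence within 200 bp of an annotated start site. Its region lay at chr7:30183975-30184227 (mm10), 253 bp wide, and covered the start site and part of the 5′ UTR of the gene (ENSMUSG00000074218.3). Its area was 209, and only 7.73% of the list had a smaller one. No region of the list had an area under 200, so this call lay just above the smallest areas listed. A small difference in signal between the pooled calls could have placed it on the list. The summit −log10 q was 2.92. The 169 bases of this region that precede the transcript (chr7:30183975-30184143, plus strand) are shown because they carry the only promoter call among the 94 genes. The capitals mark the 21 bases around the summit of the region.
Cox7a1 lost promoter region: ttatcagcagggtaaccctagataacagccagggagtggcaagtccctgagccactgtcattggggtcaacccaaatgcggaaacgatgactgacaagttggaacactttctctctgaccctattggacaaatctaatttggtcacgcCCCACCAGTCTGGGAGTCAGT
These bases had a GC content of 50.3% and held 3 CpG dinucleotides, and none of the 6 motifs searched (given further on) occurred in the whole region.

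Sdhb, the iron-sulfur subunit of succinate dehydrogenase (complex II), was the member whose start site was most tightly enclosed by lost regions. It was chosen for display after its values were seen. A region with an area of 443 lay 3063 bp upstream of the gene and covered the start of the antisense gene Gm13031, and one with an area of 401 lay in an intron of Sdhb, 1794 bp from the gene start. Those areas were larger than 89.6% and 84.2% of the list. The numbering of the control regions left 1 region between them, in a span of 4.86 kb that includes the Sdhb start site, and that region was not among the lost ones. Its exact position within the span is not given by the numbering. A stretch of 300 bases of the intronic region (chr4:140963006-140963305, plus strand, with 21 bases around the summit in capitals) is shown beside the 250 bases before the Sdhb start (chr4:140960953-140961202, plus strand), in which the 3 exact SP1 matches are in capitals.
Sdhb promoter, without a lost region: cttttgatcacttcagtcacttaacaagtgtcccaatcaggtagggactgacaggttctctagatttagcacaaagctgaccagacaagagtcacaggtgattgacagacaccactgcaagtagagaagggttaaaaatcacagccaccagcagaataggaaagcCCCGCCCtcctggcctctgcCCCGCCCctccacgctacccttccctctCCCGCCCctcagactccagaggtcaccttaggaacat
Sdhb intronic lost region: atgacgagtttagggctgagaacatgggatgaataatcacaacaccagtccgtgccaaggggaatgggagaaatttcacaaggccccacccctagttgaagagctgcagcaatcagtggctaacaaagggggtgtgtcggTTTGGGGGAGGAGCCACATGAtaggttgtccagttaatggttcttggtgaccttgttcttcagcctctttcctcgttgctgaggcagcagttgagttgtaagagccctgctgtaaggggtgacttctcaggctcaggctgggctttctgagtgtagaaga
The promoter and the intronic stretch each held 4 CpG dinucleotides, at GC contents of 52.8% and 51.3%.

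Ndufa4l2 encodes a protein related to Ndufa4 that is known for its induction under low oxygen. Both of its lost regions lay inside the gene. The one over a coding exon (chr10:127516124-127516410) had an area of 282, and the one over the 3′ end with its UTR (chr10:127516624-127516975) had an area of 406, larger than 85.3% of the list. The first of them lay 1157 bp from the gene start and is shown in full, on the plus strand with the 21 bases around its summit in capitals, because it was the nearest lost region to any member start after that of Cox7a1.
Ndufa4l2 exonic lost region: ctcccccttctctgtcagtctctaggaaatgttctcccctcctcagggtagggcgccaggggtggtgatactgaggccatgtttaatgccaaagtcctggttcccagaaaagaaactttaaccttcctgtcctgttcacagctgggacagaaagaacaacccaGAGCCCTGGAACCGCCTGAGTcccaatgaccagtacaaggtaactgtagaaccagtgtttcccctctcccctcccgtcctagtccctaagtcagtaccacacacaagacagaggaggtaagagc
The start of Ndufa4l2 lay in a span of 6.90 kb between lost regions, with 1 kept control region.

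**Figure D1:**
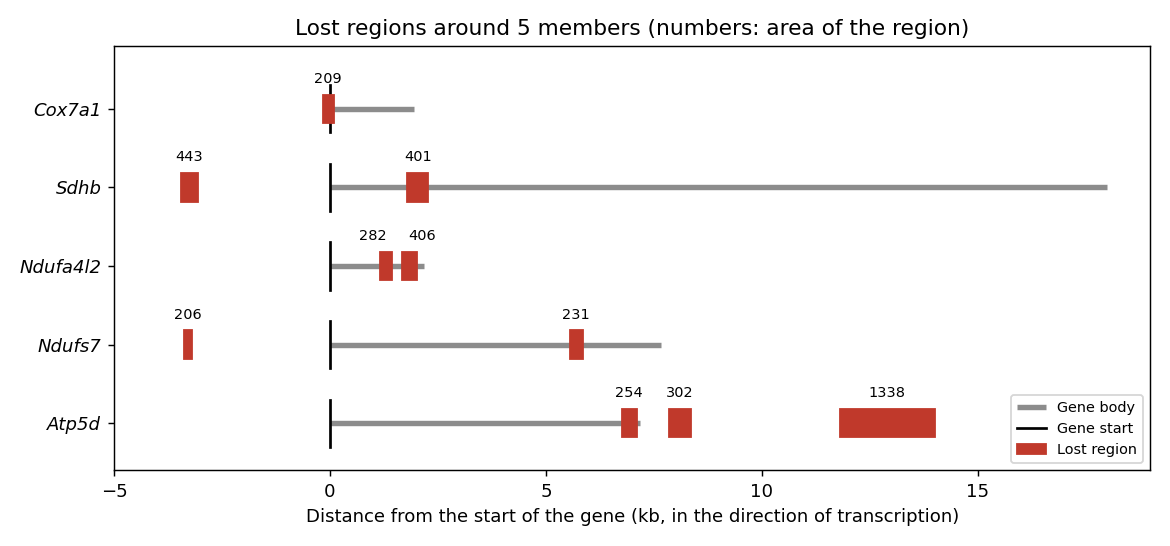
Lost regions (red) around Cox7a1, Sdhb, Ndufa4l2, Ndufs7 and Atp5d, drawn to scale as distance in kb from the start of each gene in the direction of transcription. Grey bars are gene bodies, black lines gene starts and numbers the area of each region. Only Cox7a1 has a lost region over its start, with an area of 209, and the widest region, 2191 bp with an area of 1338, lies beyond the end of Atp5d.

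A lost region overlapped the gene or lay within 5 kb of it for 13 of the 94 members, or 13.8% (8.26 to 22.2%). Among all 21938 protein-coding genes the share was 21.1%. Members were shorter than most genes, with a median length of 7.42 kb against 17.4 kb for all protein-coding genes, and longer genes have more room for a region. Other protein-coding genes of a length close to that of each member had a lost region in 16.8% of cases, a difference (members minus others) of −3.004 percentage points. The interval for the members held both the 16.8% and the 21.1%, so the share was not distinguishable from either at this number of genes.

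At the gene's own promoter the counts were lower. A lost region was called there for 1 of 94 members, or 1.06% (0.188 to 5.78%), against 5.94% of all protein-coding genes and 4.77% of other genes of similar length. The interval held the share of similar-length genes and ended below that of all genes. A set of 76 subunits taken as expressed in liver was made by leaving out symbols by name, Cox7a1 among them. No expression was measured for this. Of these 76, 0 had a lost region at their promoter, which follows from leaving out Cox7a1. A count of 0 allows a share of up to 3.95% (3 counts), and the Wilson interval ends at 4.81%, against 4.80% for genes of similar length. The other 18 members, listed as assembly factors, regulators, isoforms of other tissues and Ndufa4l2, held Cox7a1. They had a lost region within 5 kb in 4 cases (22.2%, 9.0009 to 45.2%), against 9 of 76 (11.8%, 6.36 to 20.999%) for the subunits taken as expressed in liver. These intervals overlap.

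No member had a region called only in Alb-D2KO liver within 5 kb. The share among all protein-coding genes was 0.816%, so few such genes would be met in a list of this length, and 0 of 94 has an upper Wilson bound of 3.93%. The limit that 3 counts of 94 would set is 3.19%.

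**Figure D2:**
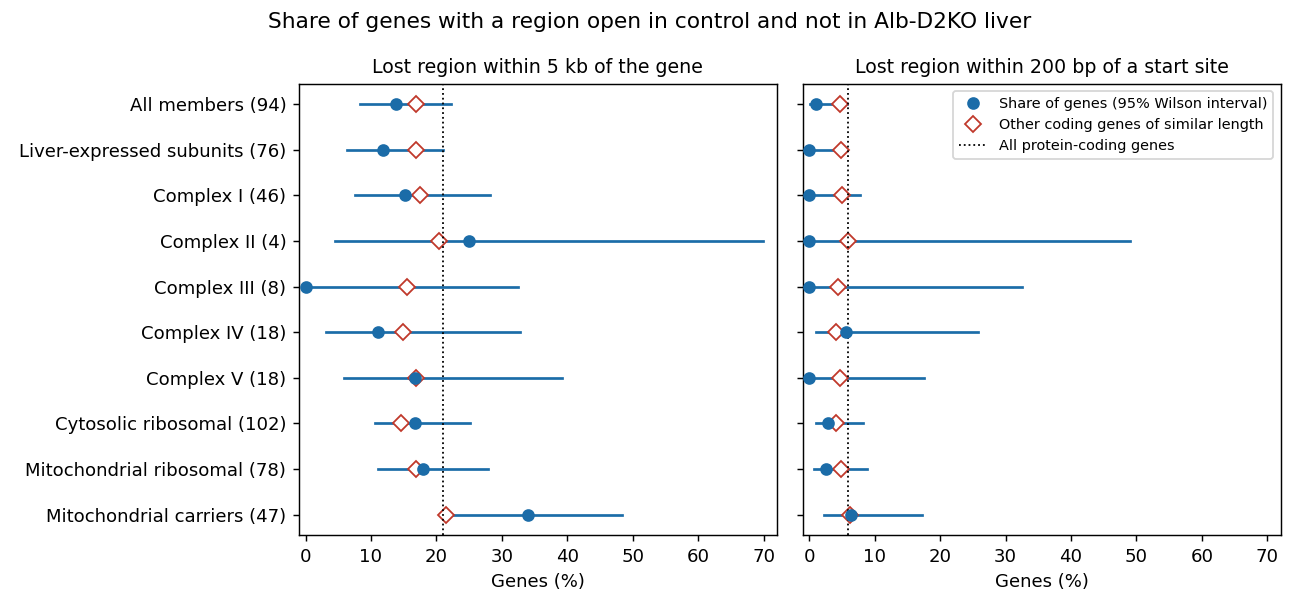
Share of genes (%) with a lost region within 5 kb of the gene (left) and within 200 bp of one of its start sites (right), for all members, the subunits taken as expressed in liver, each complex and 3 other gene lists, with the number of genes in brackets. Blue points are shares with 95% Wilson intervals, red diamonds the share of other protein-coding genes of similar length and the dotted line that of all protein-coding genes, 21.1% on the left and 5.94% on the right. All members lie at 13.8% and 1.06%, and the carriers at 34.0% and 6.38%.

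In complex I, which oxidises NADH, 7 of 46 members (15.2%, 7.57 to 28.2%) had a lost region, against 17.5% of genes of similar length. They held 10 of the 21 lost regions, with a median area of 232 and a range of 206 to 406. Ndufa4l2, placed here by its symbol alone, had 2 of them, including the largest. Ndufs7, which carries the last iron-sulfur cluster of the complex, had one 3205 bp upstream (chr10:80245737-80245916, area 206) and a larger one over a coding exon of its own (chr10:80254673-80254978, area 231). Its start thus had a small lost region on either side, with 1 kept control region in the span of 8.76 kb between them.

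Ndufs8, another iron-sulfur subunit, had a region 3258 bp downstream, inside Tcirg1 and 114 bp from a start site of that gene (chr19:3905344-3905605, area 262). The largest area in complex I outside Ndufa4l2 belonged to Ndufb8, an accessory subunit of the membrane arm, at 399 (chr19:44545436-44545962), but this region lay 2610 bp beyond the gene, over a start site of the neighbouring Sec31b. The region of Ndufb6, also an accessory subunit, lay 2596 bp downstream inside Topors (chr4:40267741-40267995, area 226). Among the 8 assembly factors named Ndufaf, Ndufaf2 alone had a lost region, in an intron of this 156 kb gene and 117 kb from its start (chr13:108041564-108041752, area 220).

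In complex II, Sdhb alone of 4 members had lost regions, against 20.3% of genes of similar length. In complex III 0 of 8 members did, with an upper Wilson bound of 32.4%, against 15.6%. In complex IV, 2 of 18 members (11.1%, 3.10 to 32.8%) had a lost region, against 14.8%, so the count was near that of similar genes. They were Cox7a1, described above, and Cox4i2, the lung isoform of subunit 4, with a region 1534 bp downstream between genes (chr2:152766571-152766761, area 260). In complex V, 3 of 18 members (16.7%, 5.84 to 39.2%) had one, against 16.9% of genes of similar length. Atp5d, the delta subunit of the central stalk, had a region at its own 3′ end (chr10:80145385-80145733, area 254), one 666 bp downstream (chr10:80146484-80146982, area 302) and one 4623 bp downstream (chr10:80150441-80152631, area 1338). The last was 2191 bp wide, covered the start of Midn and was larger than 99.9% of the list. The region of Atp5mpl, a small proteolipid of the complex, lay 4897 bp downstream (chr12:111956261-111956478, area 218).

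Atp5o, part of the stator stalk, appears in the annotation as a gene of 6.47 kb and again as a model of 243 kb that runs through Cryzl1 and Itsn1. Its 3 lost regions lay in introns shared with those neighbours, the nearest of them 159.5 kb from the start of the long model, and the largest (chr16:91747614-91747999) had an area of 275. The short model had none. Without the long model, the regions of Atp5o drop out of the count.

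The 81 other members had no row of either list within 5 kb. In complex I these were Ndufa1, Ndufa2, Ndufa3, Ndufa4, Ndufa5, Ndufa6, Ndufa7, Ndufa8, Ndufa9, Ndufa10, Ndufa11, Ndufa12, Ndufa13, Ndufab1, Ndufaf1, Ndufaf3, Ndufaf4, Ndufaf5, Ndufaf6, Ndufaf7, Ndufaf8, Ndufb2, Ndufb3, Ndufb4, Ndufb5, Ndufb7, Ndufb9, Ndufb10, Ndufb11, Ndufc1, Ndufc2, Ndufs1, Ndufs3, Ndufs4, Ndufs5, Ndufs6, Ndufv1, Ndufv2 and Ndufv3. They were Sdha, Sdhc and Sdhd in complex II, and Uqcr10, Uqcr11, Uqcrb, Uqcrc1, Uqcrc2, Uqcrfs1, Uqcrh and Uqcrq in complex III. In complex IV they were Cox4i1, Cox5a, Cox5b, Cox6a1, Cox6a2, Cox6b1, Cox6b2, Cox6c, Cox7a2, Cox7a2l, Cox7b, Cox7b2, Cox7c, Cox8a, Cox8b and Cox8c. In complex V they were Atp5a1, Atp5b, Atp5c1, Atp5e, Atp5f1, Atp5g1, Atp5g2, Atp5g3, Atp5h, Atp5j, Atp5j2, Atp5k, Atp5l, Atp5s and the short model of Atp5o. The 13 subunits encoded in mitochondrial DNA could not be compared, since no row of either list lay on that genome.

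Of the 21 lost regions, 10 overlapped a member, 8 lay downstream and 3 upstream. Start sites of any gene were within 200 bp of 5 of them, and 4 of those 5 starts belonged to a neighbour: Sec31b, Tcirg1, Gm13031 and Midn. The share of regions at any start was 23.8%, against 24.3% of the 5930 regions assigned to other protein-coding genes. A start of the member itself was met by 4.76%. For the other genes, 22.5% of regions lay at a start of any gene of that far larger set, not only of the gene they were assigned to. The 4.76% and the 22.5% therefore cannot be compared. For 7 of the 21, the nearest protein-coding gene was another gene than the member.

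The regions were mostly small. Their areas ran from 206 to 1338 with a median of 254 (225.5 to 302, 95% interval of the median), and their widths from 180 to 2191 bp with a median of 306 bp. The regions of other protein-coding genes had a median area of 280 (278 to 283) and those of the whole list 278. An area of 300 or more was reached by 6 of the 21 (28.6%), by 41.9% of the regions of other protein-coding genes and by 40.8% of the list. The interval of the members' median held the median of the others. The median GC content of the 21 regions was 54.5%, against 51.9% for the list.

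**Figure D3:**
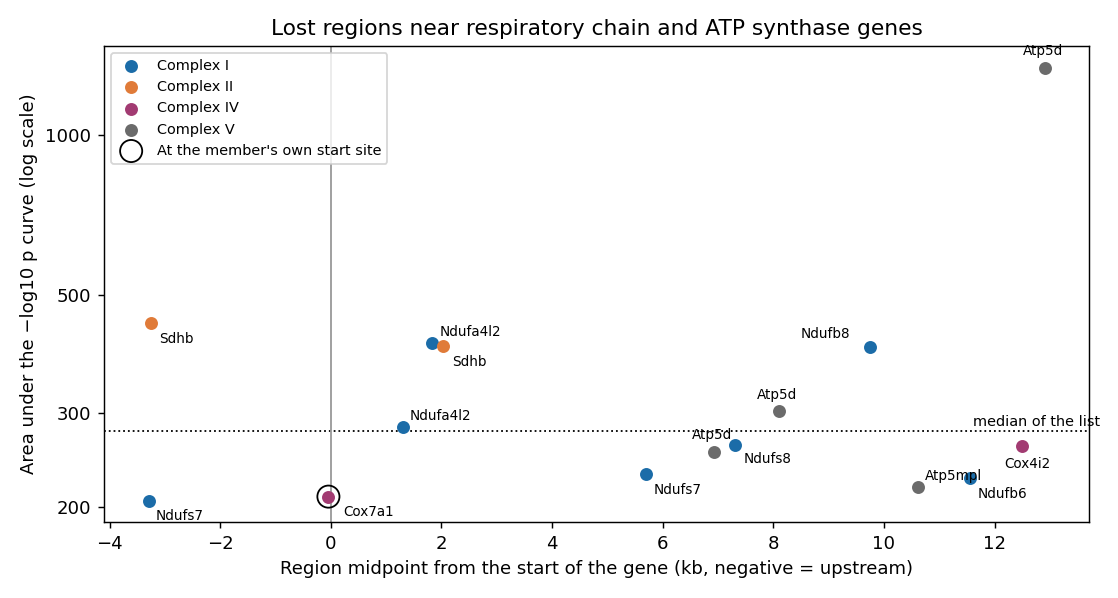
Area of 15 of the 21 lost regions (log scale) against the distance of their midpoint from the start of the gene in kb, coloured by complex. The regions of Atp5o and Ndufaf2, far from the gene start, are among those not drawn. The circle marks Cox7a1, whose region alone lies at the start of the gene, and the dotted line is the median of the list, 278. Of the 21 regions, 14 had an area below that median.

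The starts of the members were not far from lost regions in general. The median distance from the gene start to the nearest lost region was 48.9 kb for members (33.4 to 72.6 kb, 95% interval of the median) and 90.8 kb for other protein-coding genes. Within 5 kb of the start, however, a lost region was found for 5 of 94 members (5.32%), against 11.5% of other genes. At larger distances the members had the higher share, with 28.7% against 23.3% within 20 kb, 51.1% against 38.2% within 50 kb and 67.0% against 52.1% within 100 kb. Genes were not matched for length or for gene density here, and whether the shares differ at any of these distances was not tested. The closest starts after Cox7a1 were those of Ndufa4l2 at 1.16 kb, Sdhb at 1.79 kb and Ndufs7 at 3.21 kb. The most distant were Ndufaf4 at 4889 kb and Cox7c at 4678 kb. The ribosomal protein genes had similar median distances, 46.2 kb (cytosolic, 102 genes) and 48.6 kb (mitochondrial, 78 genes), and their curves crossed that of the other genes as well. The mitochondrial carriers (47 genes) also had a similar median, 45.3 kb, but 19.1% of them had a lost region within 5 kb of the start.

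**Figure D4:**
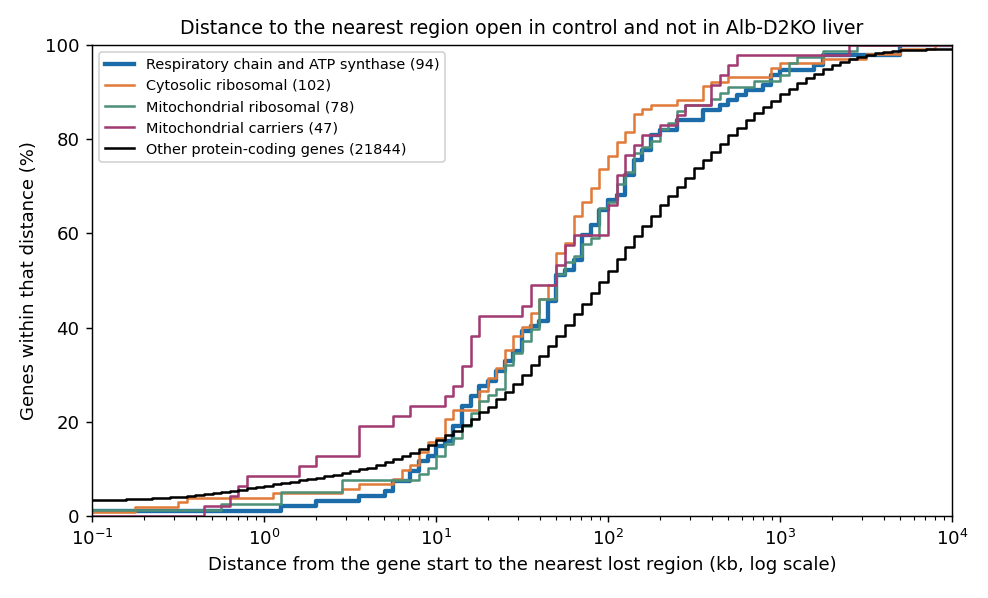
Cumulative share of genes (%) whose start lies within a given distance (kb, log scale) of the nearest lost region, for the 94 members, 3 other gene lists and the other protein-coding genes. The curve of the members lies below that of the other genes at 5 kb (5.32% against 11.5%) and above it at 50 kb (51.1% against 38.2%), close to the curves of the ribosomal protein genes.

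Control regions kept in Alb-D2KO liver could be counted, though not placed exactly, because the control regions were numbered along the genome and the lost ones kept their numbers. At least 14336 control regions were kept, so that at most 35.9% were lost. Apart from Cox7a1, whose start lies inside its lost region, each of the 93 members had at least 1 kept region in the span between the lost regions on either side of its start. The median was 4 kept regions in a span of 336 kb, and the highest count was 18, for Sdha and Ndufaf4. Among all protein-coding genes with a known count, 1229 of 20742 (5.93%, 5.61 to 6.25%) had 0 kept regions in that span. For the members the count was 0 of 93, with an upper Wilson bound of 3.97%. It was also 0 for the mitochondrial ribosomal protein genes (upper bound 4.81%) and for the mitochondrial carriers of the Slc25 family (upper bound 7.56%). For the cytosolic ribosomal protein genes it was 2 (1.98%, 0.545 to 6.93%). A count of 0 was thus not particular to the members.

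In wide spans a kept region may lie far from the gene start. The span was under 10 kb for 3 members, Sdhb, Ndufa4l2 and Ndufs7, and each had 1 kept region. Among all protein-coding genes, 194 had a span under 10 kb and 62 of them (32.0%) had 0 kept regions. Other narrow spans were 15.3 kb with 3 kept regions for Atp5d, 24.9 kb with 2 for Cox8b and 29.4 kb with 3 for Ndufb10, a complex I accessory subunit. The share of control regions lost over a wider window, set by 5 lost regions on each side of the start, had a median of 35.7% for members (12.5 to 66.7%) and 33.3% for all protein-coding genes.

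**Figure D5:**
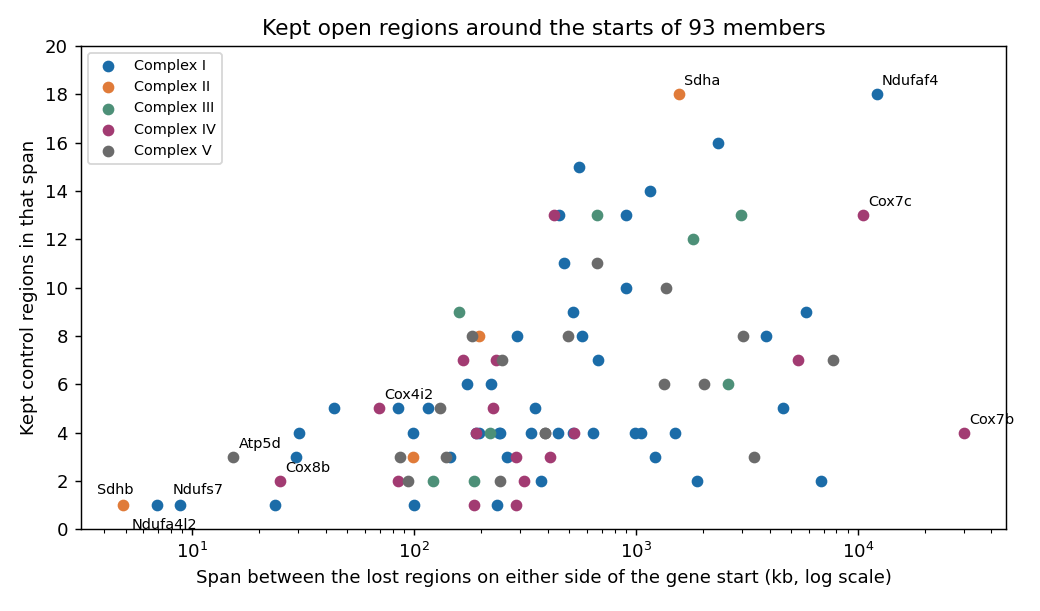
Number of control regions kept in Alb-D2KO liver between the lost regions on either side of the gene start, against that span in kb (log scale), for 93 members coloured by complex. No member lies at 0, and Sdhb, Ndufa4l2 and Ndufs7 each have 1 kept region in a span of less than 10 kb.

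Several subunits exist as a widely expressed and a tissue-restricted isoform, and these pairs were set side by side after the values had been seen. Ndufa4 and the related Ndufa4l2, known for its induction under low oxygen, were added as a pair. Ndufa4l2 is counted below as the restricted isoform, though it is not one in the same sense. The restricted isoform had a lost region and the wide one had none in 3 of 8 pairs: Cox4i2 with 1 and Cox4i1 with 0, Cox7a1 with 1 and Cox7a2 with 0, and Ndufa4l2 with 2 and Ndufa4 with 0. Neither gene had one in the pairs Cox6a1 and Cox6a2, Cox6b1 and Cox6b2, Cox7b and Cox7b2, Cox8a and Cox8b, and Cox8a and Cox8c. Among all protein-coding genes, 21.1% had a lost region within 5 kb. Whether the restricted isoforms differ from that background was not tested, and the pairs are few. The distance from the start to the nearest lost region was 0 for Cox7a1 and 45.0 kb for Cox7a2, 12.4 kb for Cox4i2 and 33.4 kb for Cox4i1, and 5.23 kb for Cox8b and 21.4 kb for Cox8a. It was 1.16 kb for Ndufa4l2 and 1770 kb for Ndufa4, and 836 kb for Cox7b2 and 1602 kb for Cox7b. The restricted isoform was the more distant one in the other pairs, at 91.5 kb for Cox6a2 and 75.9 kb for Cox6a1, 122 kb for Cox6b2 and 72.6 kb for Cox6b1, and 251 kb for Cox8c and 21.4 kb for Cox8a. It was thus nearer in 5 of 8 pairs and farther in 3, with Cox8a counted in both of its pairs. Whether this differs from an even split was not tested.

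The promoter sequences of the members, 250 bases before to 50 bases after the gene start, had a median GC content of 56.0%, against 55.0% for all protein-coding genes, and a median of 17 CpG dinucleotides against 11. The median was 18 for both the cytosolic and the mitochondrial ribosomal protein genes and 16 for the mitochondrial carriers. The higher CpG count was thus not particular to the members. A start on the opposite strand lay within 1 kb for 42 of 94 members (44.7%) and for 18.4% of all protein-coding genes. Letters typical of 6 factors were searched on both strands as exact matches. NRF1 (GCGCATGCG), a known activator of respiratory genes, matched 7 member promoters (7.45%) against 2.48% of all. The ETS core bound by GABP (CCGGAAG) matched 18 (19.1%) against 10.8%, YY1 (AAGATGGCG) 4 (4.26%) against 1.70%, CREB (TGACGTCA) 4 (4.26%) against 2.43% and the oestrogen-related receptor element ERR (TCAAGGTCA) 2 (2.13%) against 0.474%. SP1 (GGGCGGG) matched 27 (28.7%) against 31.5%. Matches were not counted for the ribosomal protein and carrier lists, so whether these shares are particular to the members is not known.

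In the 21 lost regions the NRF1, ETS, YY1 and CREB letters did not occur. They occurred in 0.312%, 4.23%, 0.611% and 0.748% of the list, so few matches would be met in 21 regions. SP1 matched 2 regions, the one near Ndufs8 and the one of area 302 beyond Atp5d, against 12.8% of the list. ERR matched the region at Midn, against 1.32%. That region was 2191 bp wide, beside a median of 326 bp for the list, and a wider region has more room for a match. A match is a run of letters and not a measured binding site.

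Of other genes that serve the chain, 4 of 18 electron carriers and their enzymes (22.2%), 7 of 39 assembly factors without an Ndufaf name (17.9%) and 5 of 13 regulators of mitochondrial genes (38.5%) had a lost region within 5 kb, against 21.1% of all protein-coding genes. The carriers and assembly factors thus lay near that background. These lists were not matched for length, and the 5 regulators with a lost region ran from 10.8 kb (Esrra) to 102 kb (Ppargc1b). Whether the 13 regulators differ from the background was not tested. Lost regions at the gene's own promoter, which 5.94% of all protein-coding genes had, were found for Coq2, an enzyme of ubiquinone synthesis (area 214), Atpaf1, an assembly factor of the ATP synthase (area 201), Pprc1, a coactivator related to PGC-1 (area 675), and Esrra, an oestrogen-related receptor (area 234). The region of Pprc1 lay at another annotated start of that gene, since the gene start itself was 11.8 kb from the nearest lost region. The other regulators with a lost region, named after their values were seen, were Ppargc1b, which encodes PGC-1 beta, with 5 regions and a largest area of 444, Yy1 with an area of 366 and Tfam, the mitochondrial transcription factor, with an area of 222. Ppargc1a, which encodes PGC-1 alpha, had no lost region and 1 region called only in Alb-D2KO liver.

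The 3 lists set beside the members differed from one another. Cytosolic ribosomal protein genes had a lost region within 5 kb in 17 of 102 cases (16.7%, 10.7 to 25.1%), against 14.7% of genes of similar length. Mitochondrial ribosomal protein genes had one in 14 of 78 (17.9%, 11.004 to 27.9%), against 16.9%, and both lists had intervals that overlap that of the members. The mitochondrial carriers of the Slc25 family, which move metabolites across the inner membrane, had one in 16 of 47 cases (34.0%, 22.2 to 48.3%), against 21.5% of genes of similar length. Their 28 regions had a median area of 341, and 67.9% reached 300. At the promoter the counts were 3 of 102 (2.94%, against 4.17% of genes of similar length), 2 of 78 (2.56%, against 4.89%) and 3 of 47 (6.38%, against 6.16%), beside 1 of 94 for the members (1.06%, against 4.77%).

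The lists hold only regions that differ between the calls, so the tissue could not be checked from the markers in the usual way. Lost regions lay within 5 kb of 6 of 7 hepatocyte markers, with 4 at the promoter, and of 1 of 4 cholangiocyte, 2 of 4 endothelial, 0 of 4 Kupffer and other immune, and 0 of 4 stellate cell markers. Over all protein-coding genes these shares were 21.1% within 5 kb and 5.94% at the promoter, so that counts of 0 or 1 of 4 are near the background. Whether the mix of cells moved with the counts of the members was not tested. No row of either list lay within 5 kb of Dio2, so the deletion itself cannot be read from these files, and the lists give no depth per library.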

How the data were processed

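ATAC-seq was performed on liver nuclei in 4 control and 4 Alb-D2KO libraries, grouped by the genotype label. The authors aligned reads to mm10 with BWA 0.7.17 after adapter trimming, removed duplicates and alignments of mapping quality under 30, and called regions with Genrich 0.6 at q 0.05 on all libraries of a genotype together. Calls on single libraries had given few regions, which the authors judged not to come from ATAC enrichment. Those regions were merged and left out of the pooled calls, so a region there could not be called. The authors then subtracted the regions of one genotype from those of the other. The deposited values are a score for display, the area as an unnormalised signal, and the −log10 q at the summit. Since libraries were pooled, depth per library is unknown and no test was possible.

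Here, rows were assigned to genes of the GENCODE M21 annotation (the authors used a later release) when they overlapped the gene or lay within 5 kb. A promoter row lay within 200 bp of a start site. Similar length meant within 1.25 times. Sequences were read from GRCm38, the assembly of mm10. Members and lists were chosen with earlier results of these data known. Every member with a row was named with its largest region, and those with a promoter row with all rows. Counting code was tested on simulated data. Python 3.11.15, pandas 2.3.3, NumPy 2.4.6, SciPy 1.17.1 and pysam 0.24.0 were used. The alternatives tried are given in the closing section. Display scores were not used in any value. The values of 1 complex I member and 1 sequence are not reported here, though counts and medians include that member.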

Additional observations from a re-analysis of the deposited data

How the results depend on the processing

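With other rules of assignment, the number of members with a lost region was 7 for the gene body only, 7 within 1 kb, 20 within 10 kb and 4 for an area of at least 300, against 13. For subunits taken as expressed in liver without the long model of Atp5o, an alternative chosen after seeing the data, it was 8. The number with a lost region at their own promoter, 1, became 0 for an area of at least 300 and for a summit q of at most 0.001. It was also 0 for subunits taken as expressed in liver, with or without the long model of Atp5o, since Cox7a1 is not among them. It became 5 with a promoter window of 3000 bp and 5 when start sites of any gene were counted. The share of other genes under these promoter rules is not given, so these counts cannot be set against a background. The median area became 403 for an area of at least 300, which follows from that limit. The difference from genes of similar length was negative in all 13 alternatives, between −0.0566 percentage points within 10 kb and −7.28 with no limit on length. These alternatives reuse the same genes and the same list, so their shared sign is not independent support for a difference. No member had an Alb-D2KO-only region in any of 11 alternatives.

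No paired analysis was possible because each genotype was called on its libraries pooled, and leaving out a library was not possible for the same reason. Areas of regions kept in both genotypes were not analysed here, which leaves a partial loss of signal at a kept promoter unmeasured. The number of genes limits the shares by complex.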
